A study of Macaca fascicularis with 38 samples.

Results

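Gene expression was compared between 2 biopsies of the same brain region in the 5 cohort 13 animals marked as drinkers, 1 taken before and 1 taken after a period of ethanol drinking. The members are the TPM columns whose header gives drinker, cohort 13 and before or after. They are 10 of the 32 libraries in the deposited table, and GEO's labels list 38 samples in all. The animals are X10226, X10227, X10229, X10230 and X10236, named here as in the table's header, and each gave 1 before and 1 after library, so there are 5 pairs. The series is a longitudinal RNA sequencing study of cynomolgus macaques (Macaca fascicularis) that drank ethanol over a long period, and its samples are biopsies of prefrontal cortical area 46. The other libraries come from 3 controls of cohort 13, and from 5 drinkers and 3 controls of cohort 9, each also with a before and an after biopsy. Every sample, controls included, has a label of before or after ethanol, and drinkers and controls are told apart only by the table's header. No source used here gives the ages, the amounts drunk or the time between the biopsies. The after biopsies of the drinkers followed both the ethanol and the first biopsy with the time since it, which cannot be told apart within the drinkers.

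Area 46 lies in the dorsolateral prefrontal cortex, a region known for working memory and executive control. Cortical neurons answer synaptic activity by switching on immediate early genes such as FOS and EGR1, largely through the kinase ERK and the cAMP-responsive factor CREB. The same signals switch on their own brakes, among them the dual-specificity phosphatases (DUSP) that inactivate ERK and the Sprouty proteins that block its activation. These transcripts are made quickly and are short-lived.

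Depth ranged from 14.4 to 38.2 M reads (M for mega), recovered from the steps between TPM values, against 12.5 M in the shallowest library of the table. The before library of animal X10229 was the shallowest of the 10, and the after library of animal X10226 followed with 17.0 M. Between 20749 and 26947 genes were above 0 per library, the highest number in the after library of animal X10230, which held 451 genes seen in no other library of the table. The titles carry an RNA code that no source used here explains. It differed between the before libraries of animals X10226 and X10227 and the other 8 libraries, so 3 pairs have 1 code and 2 pairs have 2.

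Mitochondrially encoded genes took 50.9%, 56.4%, 45.7%, 21.7% and 29.7% of the TPM in the before biopsies of animals X10226, X10227, X10229, X10230 and X10236. Their share was 46.1%, 36.2%, 27.1%, 31.5% and 29.7% in the after biopsies. It was lower after than before in 3 pairs, most of all in X10227 and X10229, higher in X10230 and equal in X10236. The mean difference was -6.76 ± 12.7 percentage points (SD, n = 5; exact two-sided sign-flip permutation test, p = 0.375, and 5 pairs cannot give a p below 0.0625). The median change over the 15324 genes tested, on the log2(TPM + 1) scale, was 0.08, 0.51, 0.56, -0.19 and -0.03 in the same order. The pairs with the largest drop in the mitochondrial share were thus those with the largest rise of the other genes. Their part in the results below was not tested, apart from the rescaled values given there.

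**Figure D1:**
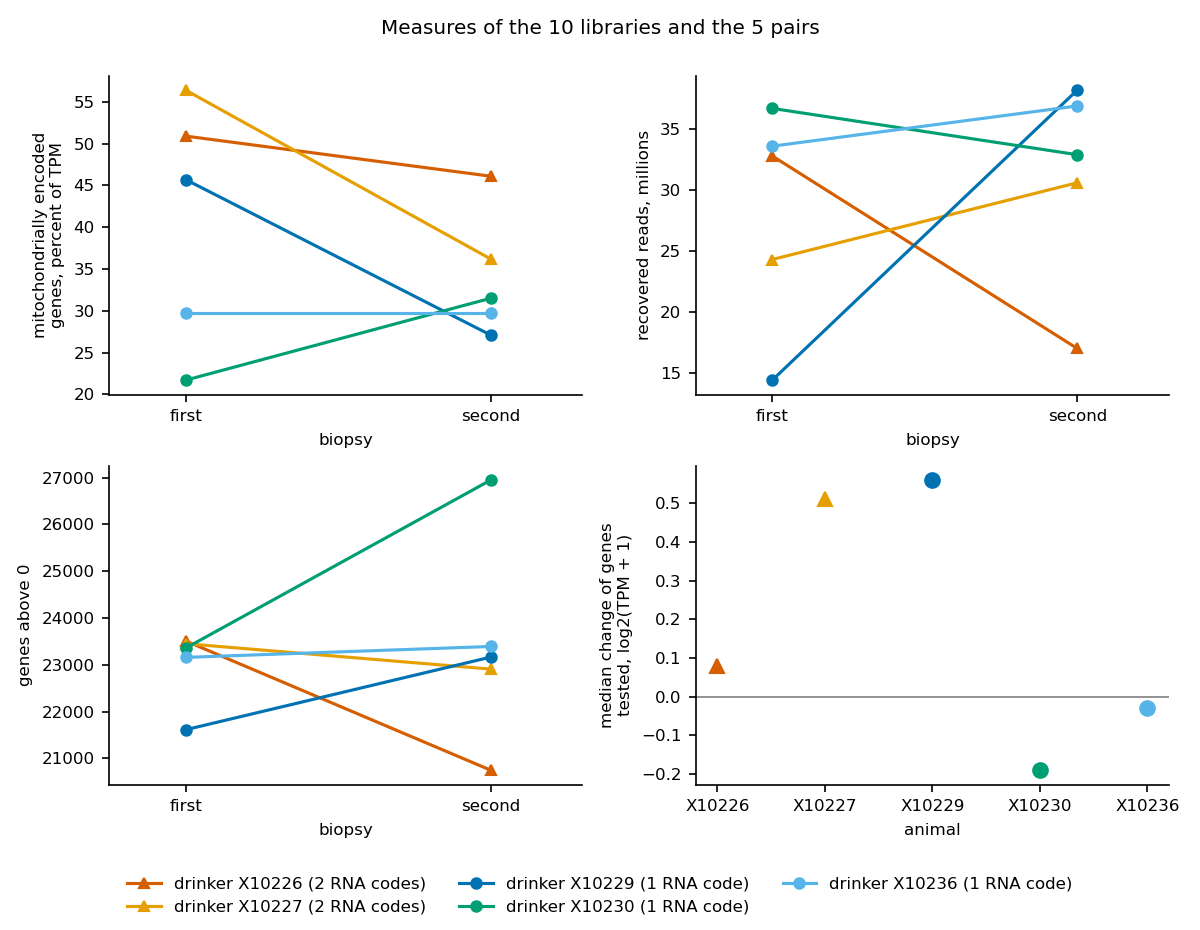
Lines join the before (first) and after (second) biopsy of each cohort 13 drinker for the share of TPM from mitochondrially encoded genes (percent), recovered reads (M) and genes above 0, and the last panel gives each pair's median change over all genes tested (log2(TPM + 1)). Triangles mark the 2 pairs with 2 RNA codes; the median change lies between -0.19 and 0.56.

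Markers of cortical cell types were present in all 10 libraries. SLC17A7, the vesicular transporter of excitatory neurons, lay between 457 and 1018 TPM, and no marker of excitatory neurons, inhibitory neurons, astrocytes or microglia was at 0 in any library. The 14 oligodendrocyte markers had 1 member at 0 in all 10 libraries, TF. In bulk tissue, fewer cells of a type and less RNA per cell cannot be told apart.

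The after biopsies had higher levels of 94 genes and lower levels of 3 (limma on log2(TPM + 1), animal as block, Benjamini-Hochberg adjusted p below 0.05 over all genes tested), which is 0.613% and 0.0196% of the 15324 genes. The 5 called genes with the largest rises were FOS, DUSP4, DUSP6, CLK1 and DUSP1. The rises of all 94 genes ran from 0.59 to 2.48 on the log2 scale with a median of 0.91. Of the 94, 91 were higher in all 5 pairs, where 890 of all genes were (5.81%), and 157 genes were lower in all 5 (1.02%). In 33 of the 94, every after biopsy lay above every before biopsy, as in 79 of all genes (0.516%). The median rise of the 94 genes was 1.05, 1.5, 0.99, 0.34 and 0.59 in animals X10226, X10227, X10229, X10230 and X10236, so X10230 showed the smallest.

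This count depends on how the spread is estimated and on single animals. All 16 pairs of the table shared an estimate of the spread, yet the median SD of the change was 0.493 in these drinkers against 0.315 in cohort 13 controls, 0.291 in cohort 9 drinkers and 0.305 in cohort 9 controls. A further fit weighted each group by its spread, with the same weight for all genes, and is called here a variance for each group. In it, 4 genes passed (0.0261%), namely DUSP4, CLK1, GPR3 and PER2. In a fit of the 5 pairs alone, 6 passed (0.0392%), namely CLK1, DUSP1, DUSP4, DUSP6, FOS and NPAS4. Leaving out animal X10226, X10227 or X10229 left 20, 8 or 7 genes higher, whereas without X10230 the numbers were 3450 higher and 52 lower. Leaving out 1 of the 5 cohort 9 drinkers or 3 cohort 13 controls gave 42 to 72 genes higher, with the lowest number without X10200. CLK1 and DUSP4 passed in all 18 alternatives tried for the cohort 13 drinkers, and of the 25 called genes named below they were the only ones to do so. Setting the median of all libraries equal lowered the median change of all genes by 0.26 on the log2 scale and gave 32 genes higher and 20 lower, so that 61.5% of calls were rises instead of 96.9%. Without the mitochondrially encoded genes in the TPM there were 43 higher and 10 lower (81.1%), and limma-voom on the recovered reads gave 86 and 22 (79.6%).

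**Figure D2:**
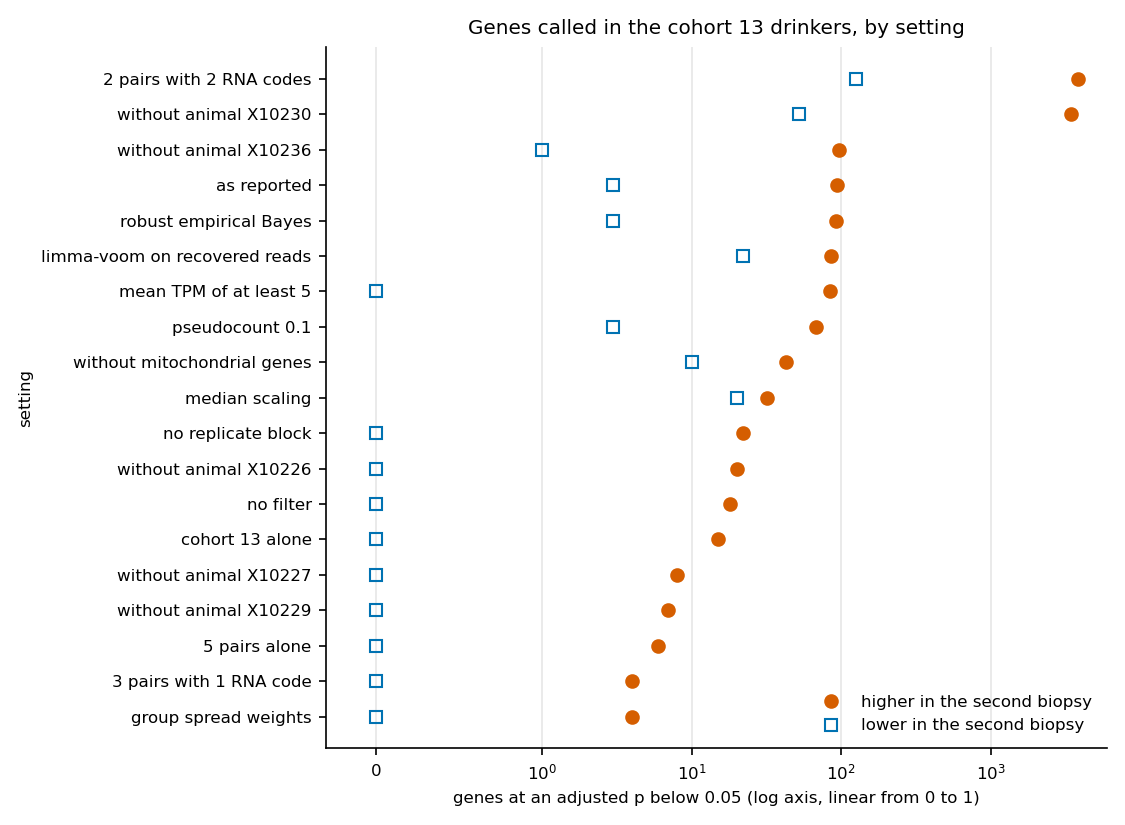
Numbers of genes higher (filled circles) and lower (open squares) in the after (second) biopsies at an adjusted p below 0.05, on a log axis that is linear from 0 to 1, for the fit as reported and each alternative. The number of genes called higher runs from 4 with a variance for each group to 3852 in the 2 pairs with 2 RNA codes.

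Of 21 immediate early genes tested, 6 rose in the after biopsies (FOS, EGR1, EGR2, NR4A1, NR4A3 and KLF10), none fell and 15 did not pass. None of them was among the 4 genes that passed with a variance for each group. The median change of the list was 0.99 against 0.18 for all genes tested, and 10 members were higher in all 5 pairs. For this and the following lists, the shares over all genes tested are 0.613% called higher and 5.81% higher in all 5 pairs. FOS, the AP-1 transcription factor subunit, stood at 5.03, 3.62, 8.12, 11.4 and 11.3 TPM in the before biopsies of animals X10226, X10227, X10229, X10230 and X10236. In their after biopsies it stood at 16.6, 48.7, 53.5, 132 and 32 TPM. Every after value lay above every before value, the highest being that of X10230. The mean rose from 7.88 ± 3.54 to 56.6 ± 44.5 TPM (SD, n = 5), a change of 2.48 ± 0.97 on the log2(TPM + 1) scale (limma, adjusted p = 0.0318).

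EGR1, a zinc finger transcription factor induced by ERK, was at 20.3, 20.9, 25.8, 52.6 and 61.5 TPM before and at 40.2, 116, 128, 170 and 77.9 TPM after. It was higher in every pair, but the after value of X10226 lay below the before values of X10230 and X10236. The change was 1.53 ± 0.88 (adjusted p = 0.0335). NR4A1 and NR4A3, orphan nuclear receptors of the same response, changed by 1.38 ± 0.94 and 1.09 ± 0.73 with overlapping groups. EGR2 rose from 3.40 ± 0.97 to 10.7 ± 4.01 TPM without overlap between the groups (change 1.35 ± 0.67, adjusted p = 0.0318).

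NPAS4, a transcription factor that responds to calcium influx in neurons, missed the threshold in the shared fit (change 2.19 ± 1.03, adjusted p = 0.0804) and passed in the fit of the 5 pairs alone (adjusted p = 0.0292). Its before values were 0.0614, 0.207, 0.368, 0.705 and 0.305 TPM, and its after values were 0.916, 5.79, 6.68, 19.2 and 2.9 TPM. The groups did not overlap, and X10226 was lowest and X10230 highest at both times. JUNB and EGR4 had estimates of 1.36 and 1.0 with adjusted p of 0.0734 and 0.063. ARC, whose product acts at synapses, had an estimate of 0.69 (adjusted p = 0.138), and IER3 was the member with the lowest estimate, -0.47, and was lower in all 5 pairs (adjusted p = 0.163).

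**Figure D3:**
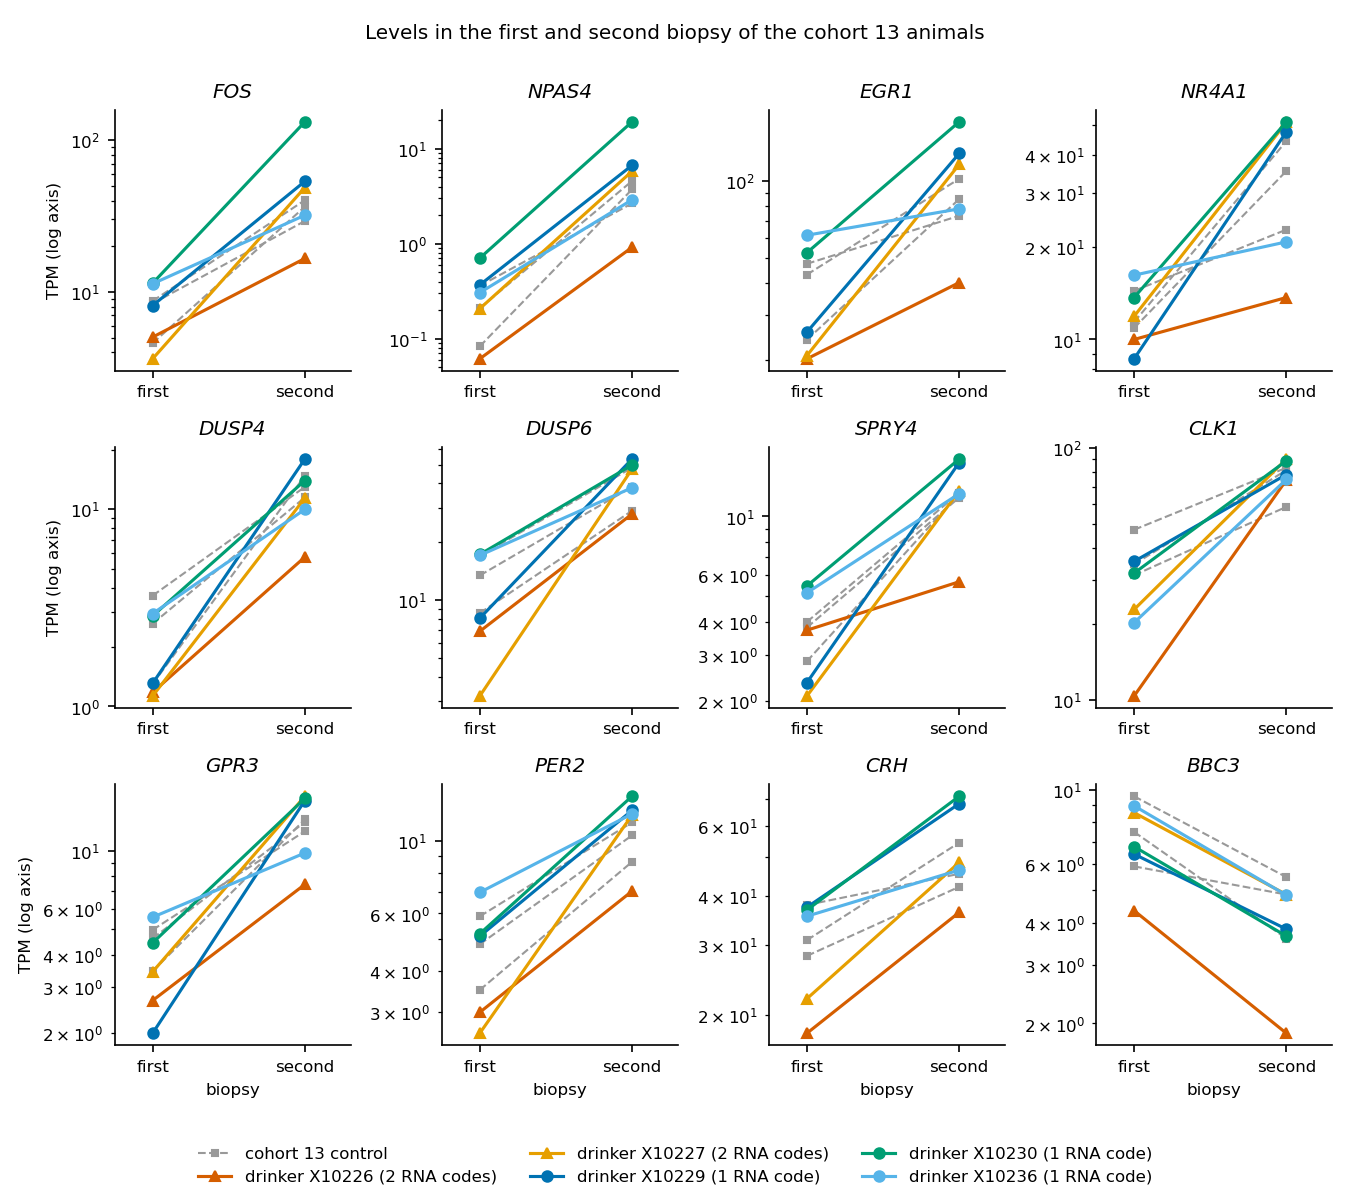
TPM on a log axis in the before (first) and after (second) biopsy for 12 genes, with solid lines for the 5 cohort 13 drinkers (triangles for 2 RNA codes) and dashed grey lines for the 3 cohort 13 controls. FOS, NPAS4, DUSP4, DUSP6, SPRY4, CLK1, GPR3 and PER2 separate the before from the after biopsies of the drinkers. BBC3 is lower after than before in every drinker and every control, and the other genes shown are higher after than before in every drinker and every control.

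Of 14 feedback inhibitors of ERK signalling, 6 rose, none fell and 8 did not pass, and DUSP4 alone of them passed with a variance for each group. The list's median change was 0.92, and 8 members were higher in all 5 pairs. Of all genes tested, 0.613% were called higher and 5.81% were higher in all 5 pairs. DUSP4, a nuclear phosphatase of ERK, was at 1.18, 1.13, 1.31, 2.88 and 2.96 TPM before and at 5.73, 11.4, 18, 14 and 10 TPM after, in the order of animals above. All after values exceeded all before values. The change was 2.13 ± 0.65 (adjusted p = 7.12e-05; 0.00209 with a variance for each group), the smallest adjusted p of all genes tested. DUSP6, the cytoplasmic ERK phosphatase, went from 6.9, 3.2, 8.06, 17.2 and 17 TPM to 27.8, 47.4, 53.4, 49.7 and 38 TPM, again without overlap (change 2.12 ± 0.96, adjusted p = 0.00574).

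DUSP1, which acts on several MAP kinases, rose by 1.70 ± 0.55 (adjusted p = 0.0318), and DUSP5, another nuclear ERK phosphatase, by 1.10 ± 0.45 (adjusted p = 0.00661). SPRY4 and SPRY2 encode Sprouty proteins, which hold back the activation of ERK by growth factor receptors. SPRY4 was at 3.71, 2.09, 2.35, 5.46 and 5.14 TPM before and at 5.66, 12.5, 16, 16.5 and 12.2 TPM after. Animal X10226 had the smallest change of the 5, at 0.50 on the log2 scale, and its after value lay just above the highest before value. SPRY2 rose by 1.36 ± 0.67 (adjusted p = 0.00574). Their relatives SPRED1, SPRED2 and SPRY1 had estimates of 1.02, 0.82 and 0.77 with adjusted p of 0.0638, 0.0972 and 0.0793, and DUSP8 had an estimate of -0.09.

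Genes answering cAMP and CREB had 4 of 17 members called higher and none lower, at a list median of 0.64. GPR3, a receptor that raises cAMP without a ligand, was at 2.67, 3.44, 2, 4.44 and 5.57 TPM before and at 7.44, 16.2, 15.6, 15.9 and 9.82 TPM after. The groups did not overlap (change 1.60 ± 0.67, adjusted p = 0.000608; 0.00769 with a variance for each group). SIK1, a kinase that restrains CREB coactivators, rose from 2.26 ± 1.02 to 10 ± 4.7 TPM (change 1.67 ± 0.93, adjusted p = 0.00661), with values of 3.73 and 6.38 TPM after in X10226 and X10236 and 12.2 to 14.3 TPM in the other 3. TRIB2 and TRIB1, Tribbles pseudokinases, rose by 0.97 ± 0.64 and 1.09 ± 0.88, TRIB1 in 4 of 5 pairs. The CREB coactivators CRTC1, CRTC2 and CRTC3 had estimates of -0.10, 0.08 and 0.06.

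Among 17 genes of the circadian clock, 2 were called higher and none lower, and the list's median of 0.17 was next to that of all genes. PER2, a clock repressor that is also a CREB target, was at 2.99, 2.58, 5.11, 5.2 and 6.96 TPM before and at 7.02, 12, 12.4, 13.7 and 12.1 TPM after. The lowest after value, that of X10226, lay just above the highest before value, that of X10236. PER2 changed by 1.19 ± 0.42 (adjusted p = 0.00141; 0.031 with a variance for each group). BHLHE40, a repressor that acts on clock genes, rose by 1.26 ± 0.75 (adjusted p = 0.0178). PER1 had an estimate of 0.16 (adjusted p = 0.645) and DBP, a clock output gene, of -0.35 (adjusted p = 0.211).

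The CLK kinases phosphorylate SR proteins and thereby steer splicing. CLK1 was at 10.4, 22.9, 35.5, 31.9 and 20.3 TPM before and at 74.6, 90.3, 78.4, 88.9 and 75 TPM after. The after values lay close together, between 74.6 and 90.3 TPM, while the before values spread widely. CLK1 rose by 1.82 ± 0.61 (adjusted p = 0.000246; 0.00769 with a variance for each group). CLK4 rose by 1.15 ± 0.40 (adjusted p = 0.00574), while CLK2 and CLK3 had estimates of 0.23 and 0.31. RSRP1, a protein rich in arginine and serine that is outside the list, rose from 31.1 ± 14.4 to 80.8 ± 5.47 TPM (change 1.47 ± 0.58, adjusted p = 0.00529). None of the 7 SR protein genes of the list passed, from SRSF7 at 0.76 (adjusted p = 0.0675) to SRSF5 at -0.33 (adjusted p = 0.293). The list of 16 had 2 calls and a median of 0.45.

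CRH encodes corticotropin-releasing hormone, a stress peptide that cortical interneurons also make. It was at 18, 22, 37.4, 36.8 and 35.5 TPM before and at 36.3, 48.5, 68.2, 71.2 and 46.4 TPM after. The 2 pairs with 2 RNA codes started lowest, and the groups overlapped through the after value of X10226. CRH rose by 0.85 ± 0.28 (adjusted p = 0.0245), and it was the only call among 14 neuropeptide genes and among 15 stress peptide and glucocorticoid genes. The list medians were 0.50 and 0.44. After median scaling CRH did not pass (limma, adjusted p = 0.116), nor did it pass by limma-voom. Its estimate in the cohort 13 controls was 0.54, with all 3 pairs higher. VIP, CARTPT, CCK and PENK were higher in all 5 pairs, as were 5.81% of all genes tested. Their estimates were 0.78, 0.75, 0.41 and 0.38, and they did not pass (adjusted p 0.0927, 0.0989, 0.0991 and 0.171). NR3C1, the glucocorticoid receptor, had an estimate of 0.79 (adjusted p = 0.0804), and its target FKBP5 one of 0.44 (adjusted p = 0.383).

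No heat shock or chaperone gene of the 14 tested passed, and the list's median was 0.64. All 14 estimates were above 0, as were 77.9% of those of all genes tested. HSPA8, the constitutive HSC70 chaperone, was at 825, 558, 864, 2028 and 1415 TPM before and at 1386, 1578, 2023, 1728 and 1621 TPM after. It was lower after than before in X10230 (change 0.69 ± 0.71, adjusted p = 0.0858). XBP1, a transcription factor of the unfolded protein response, rose by 0.67 ± 0.32 (adjusted p = 0.0486) as the only call among 11 genes of that response. ANKRD37, a target of hypoxia-inducible factors, rose by 0.72 ± 0.22 (adjusted p = 0.0318) as the only call among 14 hypoxia and glycolysis genes, and VEGFA, another target, had an estimate of 0.56 (adjusted p = 0.104). BDNF, the neurotrophin, was higher in 4 of 5 pairs at 0.73 ± 0.76 (adjusted p = 0.128).

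The remaining genes among the 12 largest rises of better-expressed genes were of other kinds. THAP5, a zinc finger protein, PIGF, which takes part in building the GPI anchor, and OPN3, an opsin, rose by 1.24 ± 0.99, 1.17 ± 0.90 and 1.16 ± 0.77 (adjusted p 0.0437, 0.0496 and 0.0462). In the 3 pairs with 1 RNA code their estimates were 0.55, 0.55 and 0.70, and in the 2 pairs with 2 codes 2.27, 2.11 and 1.84. The other called genes below were chosen after their values were seen. BMP4 and BMP2, ligands of the bone morphogenetic protein family, rose by 1.06 ± 0.24 and 0.80 ± 0.38. BMP4 went from 0.834, 1.22, 1.28, 1.68 and 1.62 TPM to 2.67, 2.53, 4.35, 5.16 and 5.1 TPM, with no overlap between before and after. P4HA1 and P4HA2, prolyl hydroxylases of collagen, rose by 1.03 ± 0.49 and 0.59 ± 0.17. CHORDC1, PPID and BAG2, cochaperones of HSP90 or HSP70, rose by 1.38 ± 0.57, 0.72 ± 0.31 and 0.82 ± 0.51.

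The 3 genes that fell were BBC3, RRAD and LOC107127783, the latter 2 chosen after their values were seen. BBC3 encodes PUMA, a promoter of apoptosis. It was at 4.35, 8.54, 6.42, 6.76 and 8.95 TPM before and at 1.87, 4.86, 3.83, 3.65 and 4.84 TPM after. It was lower in every pair by a like amount, from -0.62 to -0.90, and the groups overlapped because X10226 was low at both times. BBC3 changed by -0.75 ± 0.10 (adjusted p = 0.0433), and none of the other 11 apoptosis genes tested passed. RRAD, a Ras-related GTPase that inhibits calcium channels, fell from 7.17 ± 2.36 to 3.87 ± 0.666 TPM with no overlap (change -0.71 ± 0.28, adjusted p = 0.0462). LOC107127783 fell by 0.72 (adjusted p = 0.0318). In the cohort 13 controls X10232, X10233 and X10234, BBC3 was lower in every pair as well, by -0.24, -0.70 and -0.89. The control estimates were -0.61 for BBC3, -0.64 for RRAD and 0.04 for LOC107127783, and none of them was called there.

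The lists of synaptic, channel and receptor genes gave no call. None of 13 GABA-A receptor subunits, 15 ionotropic glutamate receptor subunits, 8 metabotropic glutamate and GABA-B receptors or 17 monoamine, opioid and cannabinoid receptors passed in either direction. The list medians were 0.44, 0.16, 0.31 and 0.39. GRIN2B, an NMDA receptor subunit, had the lowest estimate of the glutamate list, -0.26 ± 0.93 (adjusted p = 0.678). None of 21 potassium channels, 14 sodium and calcium channels, 23 genes of vesicle release or 21 postsynaptic scaffold genes passed either. Outside the lists, and chosen after its values were seen, the potassium channel gene KCNS3 rose by 0.66 ± 0.41 and was higher in all 5 pairs (adjusted p = 0.0496).

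Of 9 genes of ethanol and acetaldehyde metabolism, none passed, and their estimates lay between 0.07 and 0.38. ADH5 had the largest, 0.38 ± 0.37 (adjusted p = 0.113), and ALDH2, which clears acetaldehyde in mitochondria, had 0.10 ± 0.43 (adjusted p = 0.692). Cytokine and NF-kB genes (14 tested, median 0.05), interferon and antigen presentation genes (16 tested, median 0.04), NRF2 targets and antioxidant genes (15 tested, median 0.26) and cholesterol synthesis genes (14 tested, median 0.36) had no call. Neither had ribosomal protein genes (18 tested, median 0.11), nuclear OXPHOS subunits (9 tested, median 0.13), DNA methylation and histone genes (16 tested, median 0.12), perineuronal net and matrix genes (12 tested, median 0.22), Notch pathway genes (14 tested, median -0.0058) or neurotrophin genes (3 tested, median 0.27).

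Set against the median of all genes in the same pair, 5 of the 39 lists were higher in every pair, namely the 4 described next and the unfolded protein response genes, by 0.0032 to 0.19. The ERK feedback inhibitors lay 0.42, 1.11, 0.87, 0.84 and 0.55 above the median of all genes in animals X10226, X10227, X10229, X10230 and X10236. The immediate early genes lay 0.08, 1.36, 0.89, 1.17 and 0.27 above it, so X10226 and X10236 were the lowest of the 5 animals for both lists. The cAMP and CREB genes lay 0.11 to 0.87 above it and the heat shock genes 0.10 to 0.69. The GABA-A receptor subunits lay 1.05 above it in X10227 and 0.23 and 0.22 below it in X10230 and X10236. These lists share members, and they were chosen with earlier results of these data known.

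**Figure D4:**
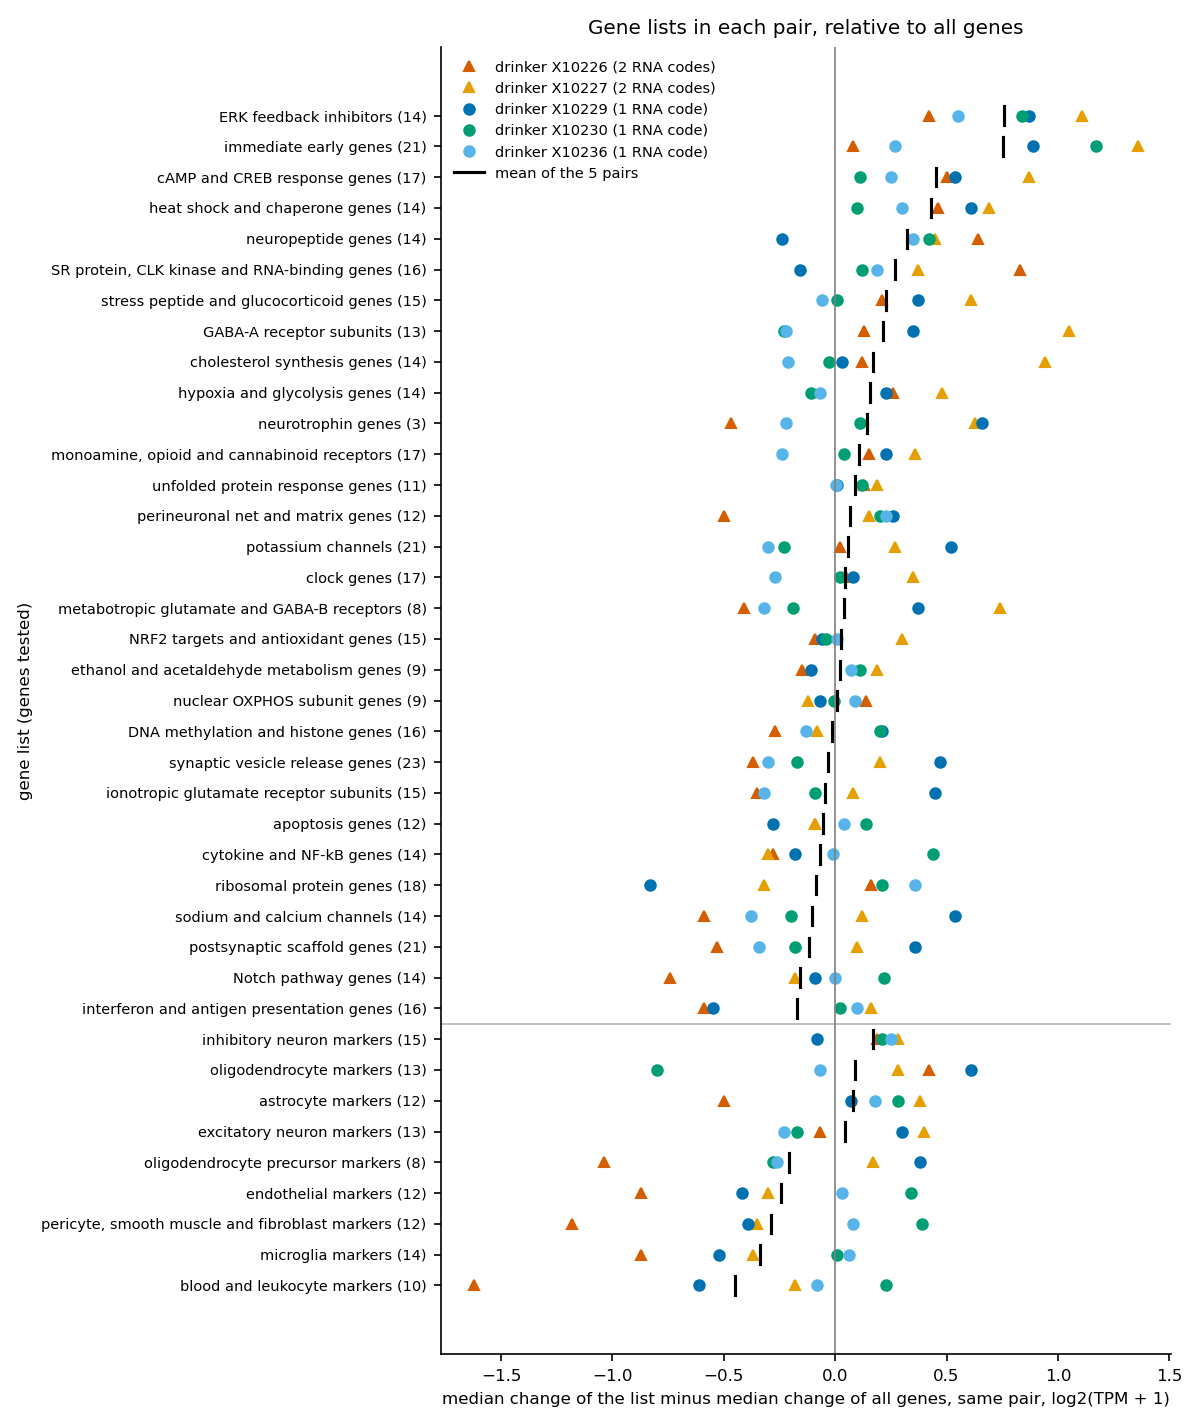
For each of the 39 gene lists (rows, number of genes tested in parentheses), how far the list's median change lies above that of all genes in the pair, log2(TPM + 1), with 1 symbol per cohort 13 drinker and a bar for their mean; marker lists of cell types are below the grey line. ERK feedback inhibitors and immediate early genes lie highest, and animal X10226 lies apart on the left in several marker lists, at -1.62 for blood and leukocyte markers.

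No marker of a cell type passed the test in either direction, over 13 excitatory neuron, 15 inhibitory neuron, 13 oligodendrocyte, 8 precursor, 12 astrocyte, 14 microglia, 12 endothelial, 12 mural and fibroblast and 10 blood markers tested. Their list medians ran from -0.22 for microglia to 0.38 for inhibitory neurons. GAD1, which makes GABA, was at 84.1, 73.5, 112, 164 and 183 TPM before and at 118, 166, 170, 156 and 193 TPM after (change 0.45 ± 0.49, adjusted p = 0.114). The summed level of the inhibitory neuron markers ran from 876 to 1494 TPM before and from 1167 to 1595 TPM after, and it was higher in 4 of 5 pairs (exact two-sided sign-flip permutation test, p = 0.125). The summed excitatory neuron markers ran from 3155 to 5789 TPM before and from 2575 to 4953 TPM after (p = 1 by the same exact test). SLC17A7 had a change of -0.02 ± 0.50 (adjusted p = 0.956).

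Glia and blood varied between animals. MBP, of myelin, was at 1831, 376, 629, 1743 and 559 TPM before and at 1542, 625, 1829, 900 and 588 TPM after. It was higher after than before in 3 pairs and lower in 2, and the estimate was 0.23 ± 0.95 (adjusted p = 0.787). GFAP, of astrocytes, had an estimate of 0.53 ± 0.48 (adjusted p = 0.242), and TYROBP, of microglia, one of -0.40 ± 0.39 (adjusted p = 0.231). HBB, a haemoglobin chain of red cells whose reads can also fit related globin genes, was at 4402, 185, 99.2, 16.5 and 384 TPM before and at 144, 735, 436, 782 and 150 TPM after. The before value of X10226 stood far above the rest and the before value of X10230 far below, and the estimate was 0.66 ± 3.95 (adjusted p = 0.775). The neutrophil gene S100A8 was at 6.51 TPM before in X10226 and at most 0.672 TPM in the other 9 libraries. Summed blood and leukocyte markers ran from 38.4 to 4466 TPM before and from 170 to 803 TPM after, and 3 of the 11 in the table were at 0 in at least 1 library (S100A8, FCN1 and CD79A). Their part in the rises was not tested.

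The rises were larger in the pairs with 2 RNA codes. Over the 94 genes, the median was 1.31 in those 2 pairs and 0.64 in the 3 pairs with 1 code, and 79 of the 94 had the larger value in the former, as did 61.3% of all genes tested. With these 3 pairs only, 4 genes passed, CLK1, DUSP4, SPRY4 and GPR3, at adjusted p of 0.0207, 0.00474, 0.0207 and 0.0207. FOS changed by 2.48 in the pairs with 1 code and by 2.49 in those with 2, and DUSP4 by 2.16 and 2.09. CLK1 changed by 1.47 and 2.33, RSRP1 by 1.15 and 1.95, and CLK4 by 0.86 and 1.57. The code and the animal cannot be told apart in these 5 pairs. The before libraries of X10226, X10227 and X10229 also had the largest mitochondrial shares, given above, and the part of these shares was not tested. Among the controls of cohort 13, the after library of X10232 carries the code that the before libraries of X10226 and X10227 have.

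The 3 cohort 13 animals marked as controls were biopsied before and after as well, and they address what changed between the biopsies apart from drinking. FOS was at 4.59, 8.7 and 8.38 TPM before and at 36.4, 40.2 and 29.3 TPM after in control animals X10232, X10233 and X10234. Every after value lay above every before value, as in the drinkers. DUSP4 was at 1.3, 2.63 and 3.65 TPM before and at 14.8, 11.5 and 13 TPM after in the controls, and it was their only called gene (0.00653% of genes tested; adjusted p = 0.00615).

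Over all genes, none differed in its change between the drinkers and the controls of cohort 13 (limma, 0.0% of 15324), the smallest adjusted p being 0.28. Unadjusted, 2211 genes had a p below 0.05, which is more than 1 in 20 of the genes tested, and limma-voom also called none. With the drinkers limited to the 2 pairs with 2 RNA codes, X10226 and X10227, 3200 genes differed. That fit kept all 3 controls, among them X10232, whose pair has the same 2 codes in the opposite order. These 2 drinker pairs gave little of its estimate of the spread, and the part of the code in this count was not tested. With only the cohort 13 pairs that have 1 code, no gene differed. Of the 94 genes higher in the drinkers, 83 had an estimate above 0 in the controls, as did 50.9% of all genes, at a median of 0.33. The difference, drinkers minus controls, was 0.31 for FOS (95% interval -1.34 to 1.96), 0.08 for DUSP4 (-0.64 to 0.79) and 0.22 for PER2 (-0.32 to 0.75). For CLK1 it was 0.85 (0.16 to 1.54, adjusted p = 0.28), and for PIGF, which had an estimate of -0.54 in the controls, it was 1.71 (0.80 to 2.62, adjusted p = 0.28). PIGF changed by -1.55 in control X10232, whose pair has 2 RNA codes, and by 0.13 and -0.18 in X10233 and X10234. In drinkers X10226 and X10227, with the same 2 codes in the opposite order, it changed by 1.91 and 2.31. In X10229, X10230 and X10236 it changed by 0.71, 0.14 and 0.80. The part of the code in this difference was not tested. The intervals come from the shared spread, which is narrower than that of the drinkers. A p that misses the threshold does not show that drinkers and controls responded alike.

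**Figure D5:**
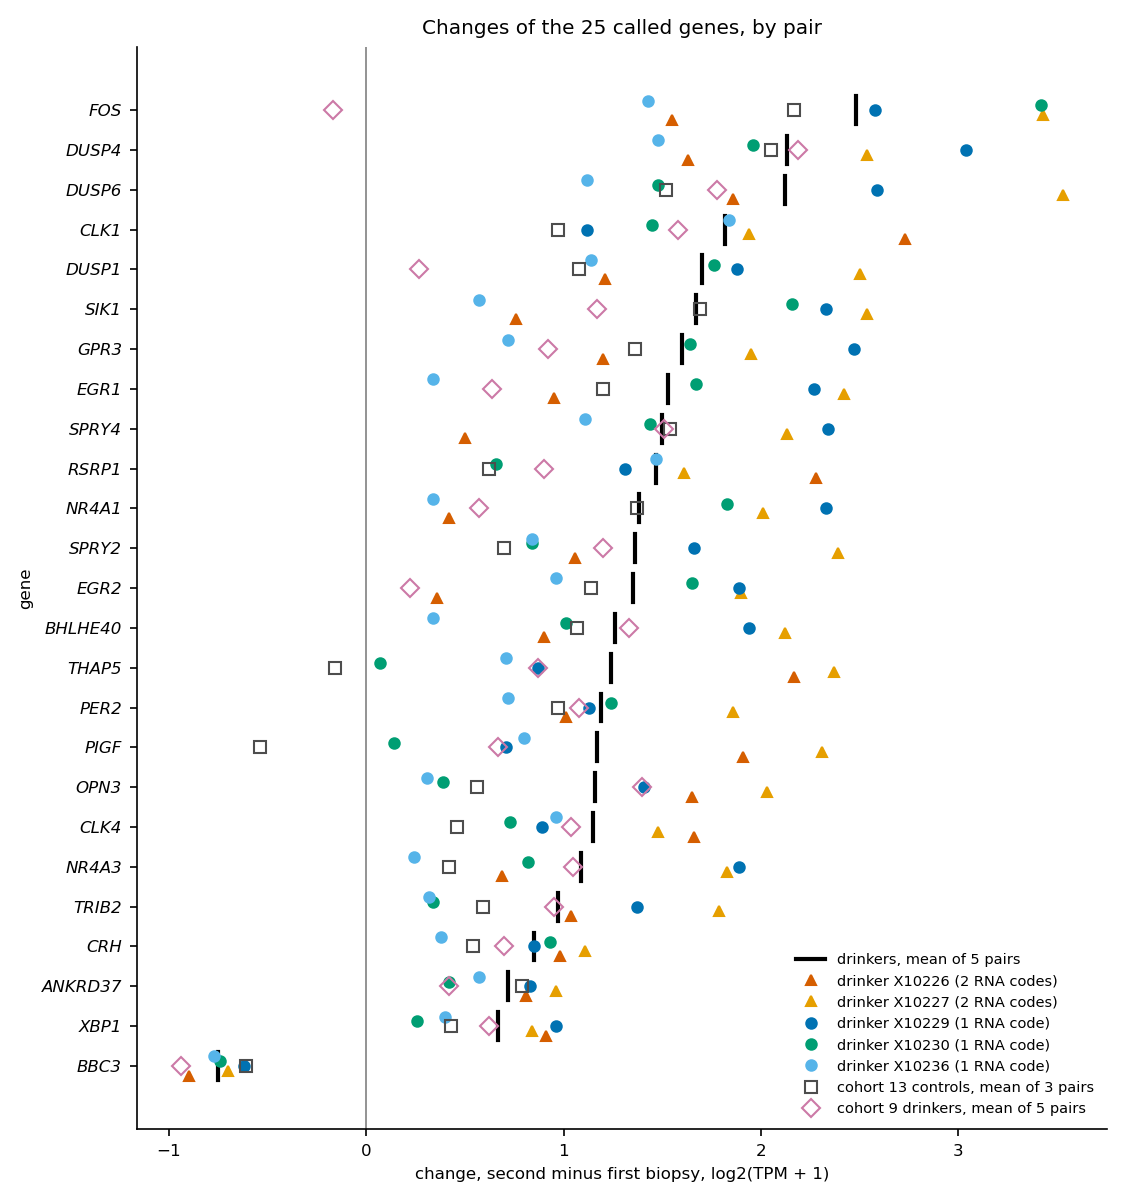
Change from the before to the after biopsy, log2(TPM + 1), of the 25 genes that were called and named by rule, with 1 filled symbol per cohort 13 drinker, a black bar for their mean, an open square for the mean of 3 cohort 13 controls and an open diamond for the mean of 5 cohort 9 drinkers. DUSP4 has means of 2.13, 2.05 and 2.19 in the 3 groups, whereas FOS has means of 2.48 and 2.17 in cohort 13 and -0.17 in cohort 9.

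In the 5 drinkers of cohort 9, 2716 genes were called in either direction (17.7%), 2263 of them higher, with a narrower spread than in cohort 13. They included 79 of the 94 genes, which is 84.0% of the cohort 13 list and 3.49% of the cohort 9 list. Of the 94, 93 had an estimate above 0 there, as did 70.9% of all genes. DUSP4 changed by 2.19, CLK1 by 1.58, SPRY4 by 1.51, PER2 by 1.08 and BBC3 by -0.94 in cohort 9, next to 2.13, 1.82, 1.5, 1.19 and -0.75 in cohort 13. The 3 cohort 9 controls had changes of 2.41 for DUSP4, 1.25 for CLK1, 1.74 for SPRY4, 1.57 for PER2 and -0.42 for BBC3 (limma, adjusted p 0.000566, 0.0928, 0.0149, 0.00191 and 0.297), so DUSP4, SPRY4 and PER2 rose in them as well.

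FOS had an estimate of -0.17 in cohort 9 (adjusted p = 0.825). It was at 32, 12, 84.2, 57.1 and 57.5 TPM before and at 23, 28.6, 71.6, 40 and 31.7 TPM after, so that its before biopsies lay above those of all cohort 13 drinkers. The difference of the changes, cohort 13 minus cohort 9, was 2.65 (95% interval 1.22 to 4.08, unadjusted p = 0.00101). DUSP1, EGR2 and NPAS4, chosen here after their values were seen, had differences of 1.42, 1.14 and 1.96 with unadjusted p of 0.00843, 0.00682 and 0.0314. None of these 4 passed over all genes (adjusted p = 1 for each), and no gene differed between the cohorts (0.0%), the smallest adjusted p being 0.578. Unadjusted, 492 genes had a p below 0.05, which is less than 1 in 20 of the genes tested, and limma-voom called none. Of the 21 immediate early genes tested, 3 were called higher in the cohort 9 drinkers and 1 lower. NR4A3 and KLF10 rose by 1.05 and 0.88 there (limma, adjusted p 0.0125 and 0.0186), and their differences were 0.05 and 0.14. EGR1 and NR4A1 had estimates of 0.64 and 0.57 there and did not pass (limma, adjusted p 0.138 and 0.177). S100A8 stood between 6.27 and 394 TPM in the before biopsies of the cohort 9 drinkers and changed by -3.99 there, against -0.79 ± 1.25 in cohort 13. The part of blood cells in this contrast was not tested. Cohort, RNA code and the conditions of sampling cannot be told apart between these groups, since all cohort 9 libraries carry an RNA code that no cohort 13 library has.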

How the data were processed

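The authors deposited 1 table of TPM values with 29958 genes and 32 library columns, and, per the file headers, marks of drinker or control, cohort and before or after. Per the labels' protocols, poly-A libraries without strand information were sequenced as single reads, so reads of overlapping antisense genes cannot be told apart. The submitters' processing notes name STAR 2.5.2b, HTSeq 0.6.1p1 and DESeq2 with no version. The genome build is not given in the sources used here. After libraries of 6 further samples were not analysed here.

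The step size of each library's TPM gave back whole reads for 29427 of 29437 genes above 0 in 2 or more libraries (99.97%, tolerance 1e-06 of a read); they gave the depths, of which the shallow libraries are the less precise, and served limma-voom. TPM were tested as log2(TPM + 1) with limma 3.58.1 (trend, R 4.3.3) on 15324 genes whose mean was 1 TPM or more, since the design foresaw counts or TPM. Animal was the block, and 16 pairs in 4 groups shared the spread (12 residual degrees of freedom). P-values were adjusted by Benjamini-Hochberg over all genes tested, at a threshold of 0.05. A log2(TPM + 1) change understates that of low genes, and ± is the SD of the changes over pairs. The same animal pairs the libraries. Correlations of their deviations from the group means were 0.09, 0.52, 0.07, 0.33 and 0.54 in X10226, X10227, X10229, X10230 and X10236. The fit was tested on simulated data in which each gene varied independently. Shifts of whole pairs, as seen here, were not simulated, so that test cannot give the share of false calls in these data. Tables and figures used Python 3.11.15, numpy 2.4.6, pandas 2.3.3, scipy 1.17.1 and matplotlib 3.10.9.

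The rule named 35 genes, of which 25 were called. It took called genes with a symbol, a mean of at least the median over genes (10.7 TPM) and 1 direction in all 5 pairs, up to the 12 largest changes and the 3 smallest p per direction. At any level, it added up to 3 called members of each list with the smallest p, and 15 fixed genes whether called or not. The 39 lists hold 592 symbols. The table has 563 of them, and 534 passed the filter. Members and lists were chosen with earlier results of these data known. Alternatives concerned the block, the libraries fitted, scaling, pseudocount, filter, variance and test. A variance for each group, the fit of the 2-code pairs and the fit of only the cohort 13 pairs with 1 RNA code were added after seeing the data.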

Additional observations from a re-analysis of the deposited data

Results flagged for a closer look

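The before library of X10229 had 21613 genes above 0, far from the before libraries of the other 4 cohort 13 drinkers, which had 23159 to 23511. It was also the shallowest of the 10 libraries, with 14.4 M reads. This was the only value marked by a Dixon test (critical value 0.71 for 5 values) among 41 groups of values examined, where chance alone marks about 1 in 20. Values described above as far from the rest, such as HBB in the before library of X10226 (4402 TPM), were not marked.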

How the results depend on the processing

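With the same animal giving both libraries, the replicate block mattered for the counts: without it, 22 genes were higher and 0 lower. Counts of higher and lower genes were 6 and 0 in the 5 pairs alone, 15 and 0 in cohort 13 alone, 32 and 20 after median scaling, 43 and 10 without mitochondrial genes, 18 and 0 without a filter, 84 and 0 at a mean TPM of at least 5, 86 and 22 by limma-voom, 4 and 0 with a variance for each group, 4 and 0 in the 3 pairs with 1 RNA code and 3852 and 125 in the 2 pairs with 2 codes. Leaving out 1 drinker gave 7 (without X10229) to 3450 (without X10230) higher and 0 to 52 lower. A pseudocount of 0.1 gave 68 and 3, and robust moderation 92 and 3. The difference from cohort 13 controls had 0 calls in every setting except the 2 pairs with 2 codes (3200), and that from cohort 9 drinkers 0 except without a filter (1). The cause of these shifts was not tested, apart from the wider spread of this group.

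The direction of 3 uncalled genes depended on the setting. MBP was at -0.03 after median scaling and at -0.1 to 0.52 on leaving out 1 drinker, SLC17A7 at -0.21 to 0.07, and HBB at -0.54 to 2.06, and at -1.47 in the 2 pairs with 2 codes. Of the 25 called genes named by rule, 12 passed without the block, 5 in the 5 pairs alone, 17 after median scaling, 19 by limma-voom and 4 with a variance for each group. Depth limits low genes most in the before library of X10229 and the after library of X10226.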
